A study of Mus musculus with 12 samples.

Results

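Id proteins and E proteins are 2 families of helix-loop-helix proteins that act against each other, and this account follows their 7 mouse genes, Id1, Id2, Id3, Id4, Tcf3, Tcf4 and Tcf12, in GMP (granulocyte-monocyte progenitors), marrow cells that become neutrophils and monocytes. The genes were found by the gene name on the array: 10 of 39429 probes carried one of these names, 1 probe for each Id gene and 2 for each E protein gene, and the transcript accession of every one of the 10 belonged to the named gene. Of the 7 genes, 6 passed the filter on dim probes and were tested among 17905 genes. A probe passed when the scanner software marked it as well above background on all arrays of 1 group or more, and Id4 was so marked on none of the 12 arrays.

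E proteins are basic helix-loop-helix transcription factors that bind the E-box, a short motif of DNA, as dimers with each other or with tissue-restricted partners such as TAL1. Id proteins have the helix-loop-helix but lack the basic region that contacts DNA, so an E protein held by an Id protein does not bind its sites. E proteins are known for starting the lymphoid programme in blood progenitors and Tcf4 for plasmacytoid dendritic cells, whereas Id1 is known as a target of BMP and TGF-beta signalling and Id2 as a factor of natural killer, innate lymphoid and dendritic cells.

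RNA was measured on 12 one-colour Agilent arrays in 4 groups. The wt group (4 arrays) was Runx1+/+-Tg(vav-Cre) GMP, and the ko group (4 arrays) was Runx1fl/fl-Tg(vav-Cre) GMP, so that both carried Cre under the vav promoter, which is active in blood cells, and only the ko group had floxed alleles of Runx1, a transcription factor of blood development. For the other groups, marrow of Runx1fl/fl-Tg(vav-Cre) mice taken on day 3 after 150 mg/kg of 5-fluorouracil was infected with an MIG retrovirus carrying GFP and either ERt2, a tamoxifen-binding receptor domain (ERt2, 2 arrays), or RUNX1 fused to it (RUNX1-ERt2, 2 arrays). These cells were transplanted into lethally irradiated recipients, tamoxifen was injected after 6 weeks at 49.5 µg/g on 3 days, and GFP-positive GMP were sorted 24 h later. Each sample's own description gives tamoxifen for both transplanted groups, whereas the treatment protocol has the fusion induced in only some of the mice, so whether RUNX1-ERt2 was active in every array of its group is not settled. RUNX1 is called absent below (ko, ERt2) or present (wt, RUNX1-ERt2) by these labels. The labels give no age of the animals and do not say whether arrays came from separate animals, so p-values here reflect array-to-array spread that may be technical in part.

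Levels are log2 processed intensity minus the 75th percentile of the array, so a level of 0 is a signal at that percentile, and levels of different probes are not comparable with each other. Each array had 53.5% to 63.1% of its probes well above background. Median processed signals were 61.4 to 92.5 on native (wt and ko) arrays and 40.2 to 54.4 on transplanted arrays. Replicates 1 and 2 of wt and ko were on slide 1, replicates 3 and 4 on slide 2, both ERt2 arrays on slide 3 and both RUNX1-ERt2 arrays on slide 4, so slide and group cannot be told apart for the transplanted groups. The file headers name the protocol GE1_105_Jan09 for slide 2 and GE1_107_Sep09 for the other slides, so slide 2 and protocol cannot be told apart. The 12 GMP marker genes examined were well above background on every array, though their levels differed between groups. Both Runx1 probes had higher signal in ko than in wt (difference 1.69 ± 0.17 log2 units, SE, adjusted p = 0.00025 by limma for the brighter probe), and since the labels do not place these probes inside or outside the deleted part, they are no check of the deletion. RUNX1-ERt2 arrays had less Runx1 signal than ERt2 arrays (difference −1.09 ± 0.24, limma adjusted p = 0.012). In RNA of whole populations, fewer cells of a type and less RNA per cell cannot be told apart.

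The Id2 upstream sequence is shown because Id2 passed the test in 4 of the 5 comparisons, more than any other member. RefSeq (GRCm38.p6) gives the 250 bases before its start, on the minus strand of chr12:25096093-25096342, here 5′ to 3′ with E-box letters of the forms CAGCTG or CAGGTG in capitals.

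Id2: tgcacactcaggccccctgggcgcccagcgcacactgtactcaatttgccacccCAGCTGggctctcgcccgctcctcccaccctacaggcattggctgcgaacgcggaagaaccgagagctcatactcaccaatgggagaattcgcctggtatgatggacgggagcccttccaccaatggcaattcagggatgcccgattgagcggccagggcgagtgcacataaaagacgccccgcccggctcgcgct

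The search covered both strands for those E-box forms and for the RUNX motif letters TGTGGT and TGCGGT. The Id2 window held 1 E-box, CAGCTG, which starts 196 bases before the gene's start, and neither RUNX form. One of these E-box forms was in 27.7% of all 32851 windows of the same length, and one of the RUNX forms was in 18.6%. Among the other members with a window, Id3, Id4 and Tcf3 held neither motif, and 1 of the 3 Tcf12 windows held a CAGCTG. The absence of letters in 250 bases says nothing about binding elsewhere, and no windows were at hand for Id1 and Tcf4.

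**Figure D1:**
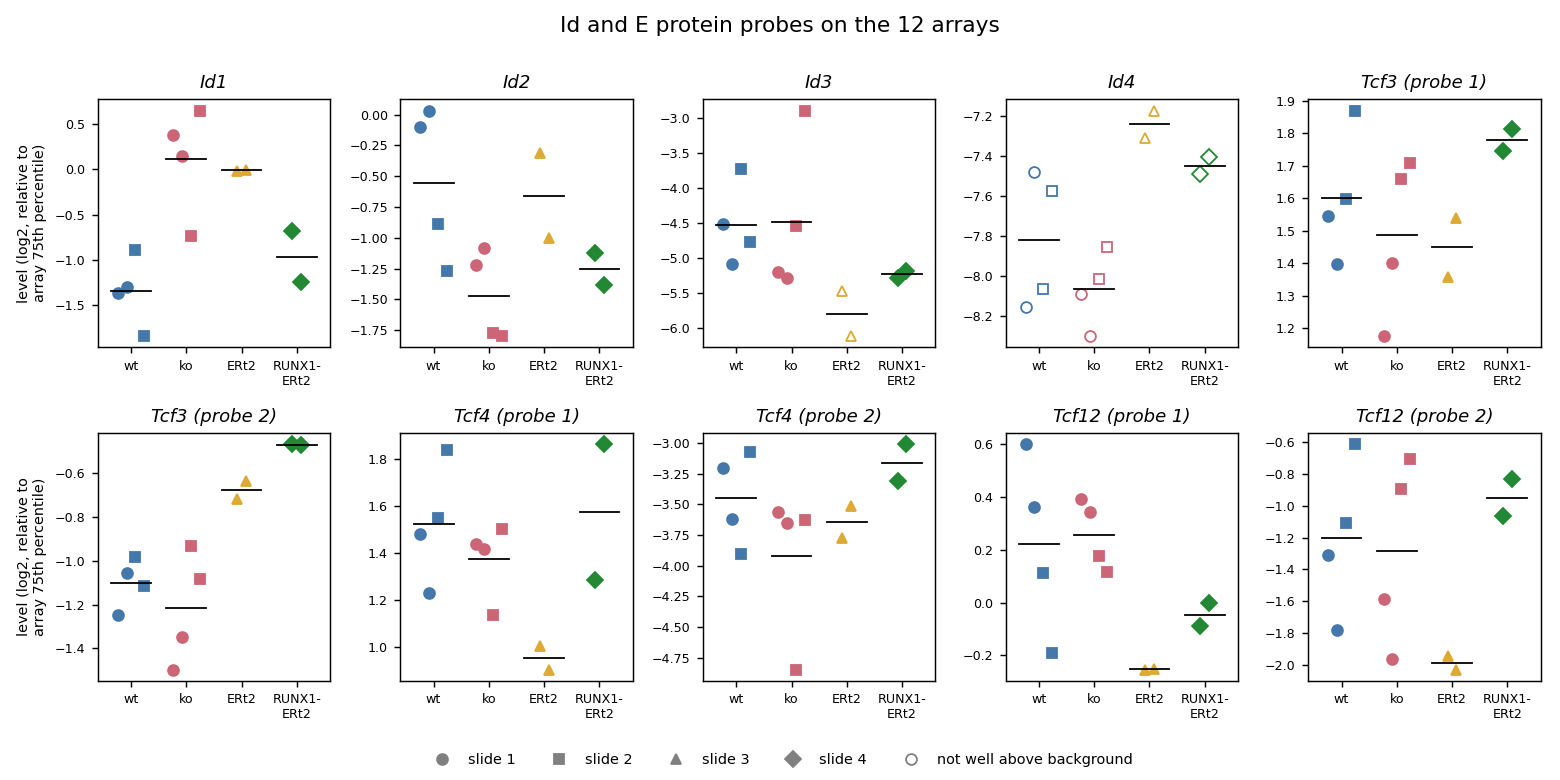
Level of each of the 10 member probes on the 12 arrays (log2, relative to the 75th percentile of the array), by group, with the slide as the marker shape, open markers where the probe was not well above background, and a line at the group mean. The 4 ko arrays of Id1 lie above the 4 wt arrays, Id2 is higher in wt than in ko on each slide, and every Id4 marker is open.

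In native GMP the Id genes differed in opposite directions between ko and wt: Id1 rose 2.76-fold in ko against wt, Id2 fell 1.88-fold, and no E protein gene passed the test. Id1, whose product sequesters E proteins and which is known from stem cells and early myeloid progenitors, was measured by a probe on chromosome 2 (152563083 to 152563142, mm9). Its levels in wt replicates 1 to 4 were −1.37, −1.30, −0.89 and −1.84, a mean of −1.35 ± 0.39 (SD, n = 4). In ko replicates 1 to 4 they were 0.39, 0.15, −0.73 and 0.65, a mean of 0.11 ± 0.60 (SD, n = 4). The lowest ko array, replicate 3, was still above the highest wt array, also replicate 3, so the groups did not overlap. The fitted difference was 1.46 ± 0.31 (SE, 95% interval 0.77 to 2.15, adjusted p = 0.0092 by limma with Benjamini-Hochberg adjustment over all genes), and it was 1.60 on slide 1 and 1.33 on slide 2. It passed the threshold of 0.05 in all 8 fits that left out 1 wt or ko array, but not on the 4 arrays of slide 2 alone (adjusted p = 0.38).

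Id2, which binds E proteins and is required for several lymphoid and dendritic lineages, was measured by a probe on the minus strand of chromosome 12 (25778904 to 25778963, mm9). Its levels in wt replicates 1 to 4 were −0.10, 0.03, −0.89 and −1.27 (mean −0.56 ± 0.63, SD, n = 4). In ko replicates 1 to 4 they were −1.22, −1.08, −1.78 and −1.80 (mean −1.47 ± 0.37, SD, n = 4). Both ko arrays were below both wt arrays on each slide, while across slides wt replicate 4 lay below ko replicates 1 and 2. The difference was −0.91 ± 0.17 (SE, 95% interval −1.29 to −0.54, limma adjusted p = 0.0051), and it was −1.12 on slide 1 and −0.71 on slide 2. Id2 differed between slides by about as much as between genotypes: the value on slide 2 minus that on slide 1 was −1.05 in wt and −0.63 in ko. Slide, protocol and replicates 1 and 2 against 3 and 4 cannot be told apart in this shift. The call held without each array in turn, and it was lost without the slide term (adjusted p = 0.067) and on slide 2 alone (adjusted p = 0.20).

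Id3, the third member of the family and an early B- and T-cell regulator, was dim, with wt levels of −4.51, −5.08, −3.72 and −4.77 and ko levels of −5.20, −5.28, −4.54 and −2.89 in replicates 1 to 4. The highest level of both groups and the lowest were in ko, and the difference was 0.04 ± 0.39 (SE, limma adjusted p = 0.95). Its sign was negative on slide 1 (−0.44) and positive on slide 2 (0.53). Id4 lay between −8.30 and −7.17 over the 12 arrays and was not well above background on any of them, so it has no fold.

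The E protein genes differed little between wt and ko. Tcf3, which encodes the E proteins E12 and E47, had levels of 1.55, 1.398, 1.60 and 1.87 in wt and 1.18, 1.402, 1.66 and 1.71 in ko. These groups overlapped, and the difference was −0.12 ± 0.10 (95% interval −0.33 to 0.10). Tcf4, which encodes E2-2, had levels of 1.48, 1.23, 1.55 and 1.84 in wt and 1.44, 1.42, 1.13 and 1.503 in ko. Its difference was −0.15 ± 0.16 (95% interval −0.52 to 0.22), with the highest and second-highest arrays both in wt. Tcf12, which encodes HEB, had levels of 0.60, 0.36, 0.11 and −0.19 in wt and 0.39, 0.34, 0.18 and 0.12 in ko, and the widest spread was within wt. Its difference was 0.04 ± 0.10 (95% interval −0.20 to 0.27), so a change of Tcf12 or Tcf3 larger than about 0.33 in either direction is outside these intervals. The second probes gave −0.11 for Tcf3, −0.47 for Tcf4 and −0.09 for Tcf12, each with a 95% interval that includes 0. Of the 6 members tested, 2 passed in ko against wt, where 25.3% of all 17905 genes did, and 1 member (Id1) had groups that did not overlap, as did 23.3% of genes.

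**Figure D2:**
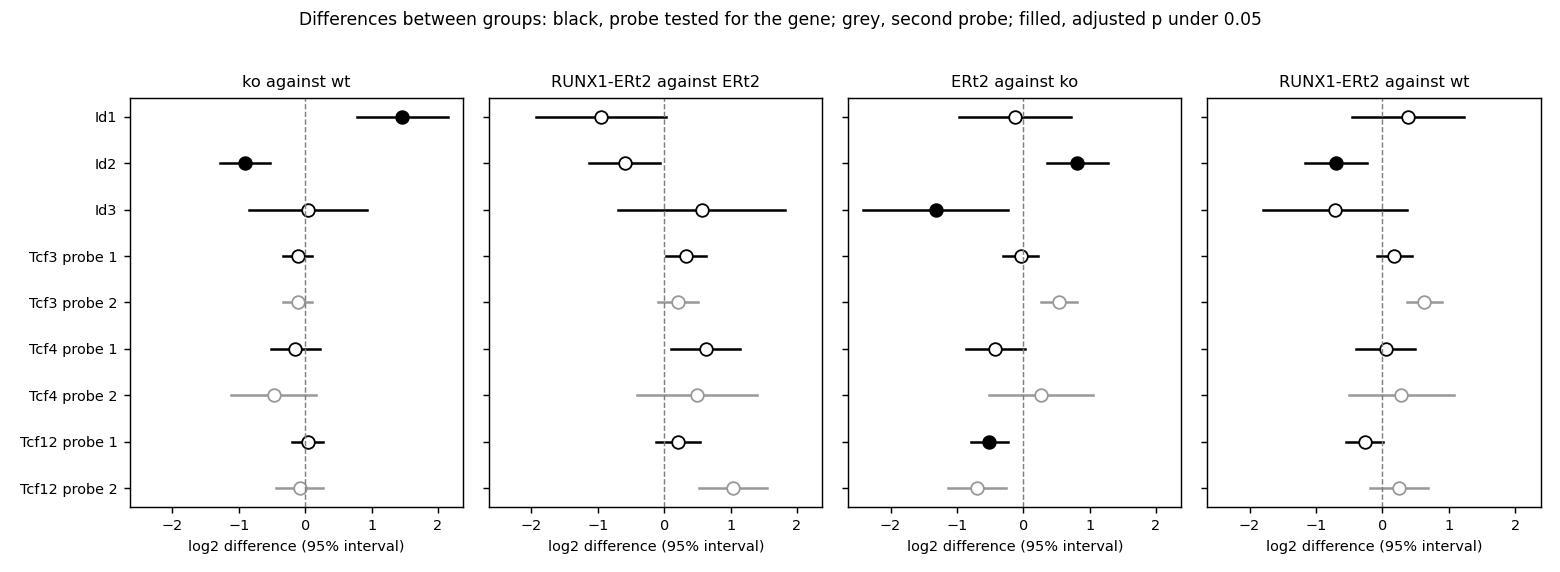
Log2 difference and 95% interval of the 9 member probes that passed the filter in 4 comparisons, from 1 limma fit over 12 arrays; black marks the probe that represents the gene, grey the second probe, and filled circles a limma adjusted p under 0.05. Filled circles are Id1 and Id2 in ko against wt, Id2, Id3 and Tcf12 in ERt2 against ko, and Id2 in RUNX1-ERt2 against wt.

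In RUNX1-ERt2 against ERt2, the vectors with and without RUNX1, all 6 tested members were short of the threshold by limma, with 3 of them at an unadjusted p under 0.05 (Id2, Tcf3 and Tcf4). Over all genes, 19.1% passed the threshold and 31.6% had an unadjusted p under 0.05. For each of the 6 members the 2 RUNX1-ERt2 arrays lay on one side of the 2 ERt2 arrays, which was also so for 58.9% of all genes. The median difference was 0.27 over the members. Each of these differences lies between slide 3 and slide 4, and the part of the slide in them cannot be told apart.

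Id1 levels were −0.0157 and −0.0024 in ERt2 and −0.69 and −1.24 in RUNX1-ERt2. Both ERt2 arrays were thus near the ko mean and both RUNX1-ERt2 arrays between the wt and ko means, with a difference of −0.96 ± 0.43 (SE, 95% interval −1.93 to 0.02, limma adjusted p = 0.17). Id2 levels were −0.31 and −0.998 in ERt2 and −1.12 and −1.39 in RUNX1-ERt2, and the difference was −0.60 ± 0.24 (95% interval −1.13 to −0.07, adjusted p = 0.12). Without ERt2 replicate 2 the Id2 difference was −0.94 and passed (adjusted p = 0.030), and without ERt2 replicate 1 it was −0.26. Id3 levels were −5.48 and −6.12 in ERt2, where the probe was not well above background on either array, and −5.29 and −5.18 in RUNX1-ERt2, where it was. No fold is given for Id3, because its RUNX1-ERt2 mean lay below the limit of detection set on the ERt2 arrays.

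The E protein genes all had higher values with RUNX1-ERt2. Tcf3 was at 1.36 and 1.54 in ERt2 and at 1.75 and 1.81 in RUNX1-ERt2, a difference of 0.33 ± 0.14 (adjusted p = 0.13). Tcf4 was at 1.00 and 0.90 in ERt2 and at 1.28 and 1.87 in RUNX1-ERt2, a difference of 0.62 ± 0.23 (limma adjusted p = 0.096). The RUNX1-ERt2 arrays of Tcf4 were farther apart than the groups at their nearest, and without RUNX1-ERt2 replicate 1 the difference was 0.91 and passed (adjusted p = 0.041). Tcf12 was at −0.25 on both ERt2 arrays and at −0.09 and −0.0012 in RUNX1-ERt2, a difference of 0.21 ± 0.14. Its second probe, which lies 3′ of the first on the minus strand of chromosome 9 (71692059 to 71692086, mm9, where the file gives 28 aligned bases), was at −1.94 and −2.03 in ERt2 and at −1.07 and −0.83 in RUNX1-ERt2. That difference of 1.03 ± 0.22 (95% interval 0.53 to 1.54) was several times that of the first probe (71692310 to 71692369), so the 2 Tcf12 probes disagree in size though not in sign. With the mean of both probes in place of the brighter one, Tcf12 passed (difference 0.62, adjusted p = 0.021).

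**Figure D3:**
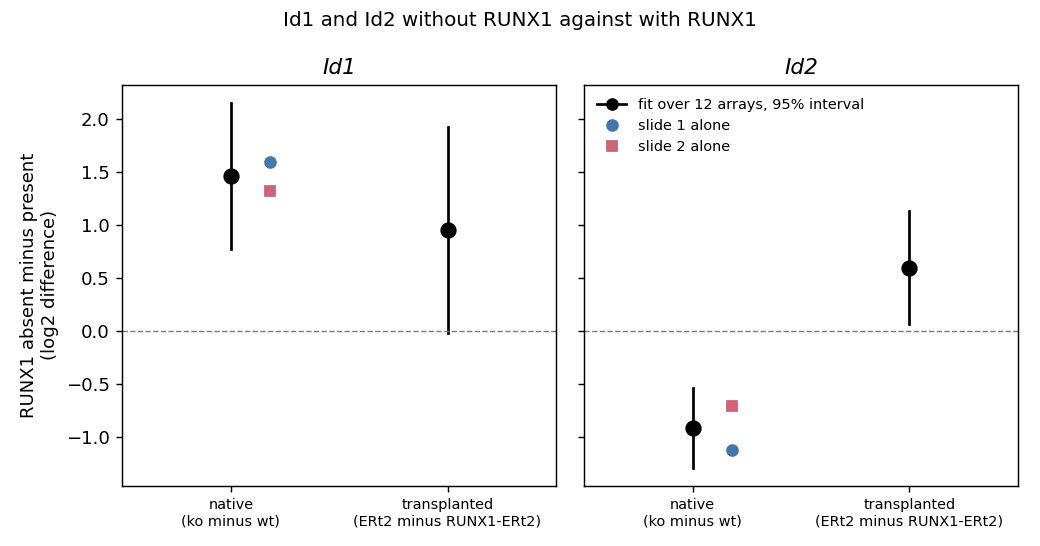
RUNX1 absent minus present for Id1 and Id2 (log2 difference with 95% interval, from 1 limma fit over 12 arrays) in native GMP (ko minus wt) and in transplanted GMP (ERt2 minus RUNX1-ERt2), with the native values within slide 1 and slide 2. Id1 is above 0 in both settings (1.46 and 0.96), while Id2 is below 0 in native cells (−0.91) and above 0 in transplanted cells (0.60).

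For Id2, the value of RUNX1 absent minus present differed between native and transplanted cells. Id2 was lower in ko than in wt in native GMP (−0.91) and had a value of 0.60 in the other direction in transplanted GMP, and the difference between these effects was 1.51 ± 0.29 (SE, 95% interval 0.86 to 2.16, limma adjusted p = 0.0074). Id2 was the 1 of 6 members that passed this test, where 18.2% of all genes did. The call held in all 12 fits that left out 1 array, but it was lost with slide as a random block (adjusted p = 0.091) and without the slide term (adjusted p = 0.098). For Id1 the effects in the 2 settings had the same sign, and their difference was −0.51 ± 0.53 (95% interval −1.70 to 0.69), which leaves room for both equal and clearly unequal effects. Differences between the effects on the tested probes were −0.61 for Id3, −0.22 for Tcf3, −0.47 for Tcf4 and −0.24 for Tcf12, none past the threshold. The second Tcf12 probe gave a larger difference, −0.95 (95% interval −1.57 to −0.33). With the mean of both Tcf12 probes it was −0.60 (limma adjusted p = 0.058). The second probes of Tcf3 and Tcf4 gave −0.09 and −0.0147.

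ERt2 and ko cells were both of the Runx1fl/fl-Tg(vav-Cre) genotype with no RUNX1 vector. They differed in 5-fluorouracil given to the donors, infection, transplantation, irradiated hosts, tamoxifen and slide. Between them 56.9% of all genes passed the test. Of the 6 members, 3 passed: Id2 rose by 0.81 ± 0.20 (limma adjusted p = 0.0080), Tcf12 fell by 0.51 ± 0.13 (adjusted p = 0.0073) and Id3 fell. The Id3 fold is a lower bound for the group means, since ERt2 arrays were not well above background. The ERt2 mean was at least 1.63-fold below the ko mean of −4.48 (limma adjusted p = 0.042, between 0.026 and 0.84 over other settings). This bound does not hold array by array, since ko replicates 1 and 2 (−5.20 and −5.28) were themselves below the ERt2 limit of −5.185. This Id3 call was past the threshold in 5 of 18 other settings, and ko replicate 4 held the highest Id3 level of any array. The Tcf12 call was lost with arrays scaled on their median (−0.32, adjusted p = 0.14), with the series matrix (−0.33, adjusted p = 0.12) and with slide as a random block (adjusted p = 0.072). The Id2 call was lost without the slide term (limma adjusted p = 0.10) and with slide as a random block (adjusted p = 0.11). Without ERt2 replicate 1, which leaves 1 ERt2 array, the Id2 difference was 0.47. Tcf4, with a difference of −0.42 ± 0.20, passed without ko replicate 3 (adjusted p = 0.039). The second Tcf4 probe had the opposite sign (0.27 ± 0.35), and the mean of both probes gave −0.07. The Id1 difference was −0.12 ± 0.37 and that of Tcf3 −0.04 ± 0.12, and these signs turned when arrays were scaled on their median (0.07 and 0.16). The second Tcf3 probe disagreed with the first: it was at −1.25, −1.06, −0.99 and −1.12 in wt, at −1.50, −1.35, −0.93 and −1.08 in ko, at −0.72 and −0.64 in ERt2, and at −0.47 on both RUNX1-ERt2 arrays. All 4 transplanted arrays thus lay above all 8 native arrays on that probe (difference 0.54 ± 0.12 in ERt2 against ko), which lies on chromosome 10 at 79875963 to 79876022 (mm9), upstream of the first probe (79872639 to 79872698) on the minus strand. In ERt2 against ko, groups did not overlap for 4 of 6 members and for 63.0% of genes.

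RUNX1-ERt2 cells, in which RUNX1 was supplied, differed from wt in 1 of 6 members, where 46.1% of all genes passed. Id2 was 1.62-fold lower in RUNX1-ERt2 (difference −0.70 ± 0.20, limma adjusted p = 0.021), and its arrays overlapped those of wt. This call was lost without wt replicate 2 (−0.63, adjusted p = 0.052), without RUNX1-ERt2 replicate 2 (−0.57, adjusted p = 0.14) and with scaling on the array median (−0.57, adjusted p = 0.074). Id1 had a difference of 0.39 ± 0.37 (95% interval −0.46 to 1.23) and Tcf4 one of 0.05 ± 0.20. Tcf12 had −0.27 ± 0.13, which passed without wt replicate 4 (−0.36, adjusted p = 0.022), and Tcf3 had 0.18 ± 0.12 on the tested probe and 0.63 ± 0.12 on the second. Id3, at −0.71 ± 0.48, was the 1 member whose groups did not overlap, against 55.9% of genes.

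Ordered by mean level, Id1 went from wt (−1.35) through RUNX1-ERt2 (−0.97) and ERt2 (−0.0090) to ko (0.11), and Id2 from ko (−1.47) through RUNX1-ERt2 (−1.25) and ERt2 (−0.66) to wt (−0.56). Neighbours in the Id1 order did not pass the test, nor did RUNX1-ERt2 with ERt2 in the Id2 order, whose other neighbours were not compared. Tcf4 was lowest in ERt2 (0.95) and lay between 1.37 and 1.57 in the other groups, and Tcf3 lay between 1.45 in ERt2 and 1.78 in RUNX1-ERt2. ERt2 also had the lowest Tcf12 (−0.25) and Id3 (−5.80) means, so its mean was the lowest of the 4 on the tested probe of each of these genes, for Id3 at a signal not well above background and for Tcf3 only in this scaling, since ERt2 was above ko by 0.16 with the array median. On the second probes ko was lowest for Tcf4 (−3.92, ERt2 −3.65) and Tcf3 (−1.22, ERt2 −0.68), and ERt2 for Tcf12 (−1.98).

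The pathways around these genes were described with 7 gene lists, whose counts stand beside the shares over all genes: 11.5% rose and 13.8% fell in ko against wt, and 10.2% rose and 8.87% fell in RUNX1-ERt2 against ERt2. In the list of BMP, TGF-beta and Smad genes, the signalling route known to switch on Id1, 12 of 28 tested genes rose and 1 fell in ko against wt, with a median difference of 0.23 against −0.05 over all genes. Bmp7, a ligand, rose by 2.68 ± 0.34 (limma adjusted p = 0.00090), with levels of −5.40 to −4.25 on the wt arrays and −2.26 to −1.72 on the ko arrays. Acvr1b, a type I activin receptor, rose by 1.53 ± 0.16 and Tgfbr2, the type II TGF-beta receptor, by 0.95 ± 0.20. The signal transducer Smad1 rose by 0.68 and the inhibitory Smad6 by 0.54. The 1 lower call was the ligand Tgfb3, which only 1 of the 4 wt arrays and no ko array measured well above background, so both groups were near background. The part of this pathway in the Id1 difference was not tested. In RUNX1-ERt2 against ERt2, 3 of the 28 rose and 2 fell, with a median of −0.09 against −0.0002 over all genes. Those that rose were Bmp1, a protease that cleaves procollagen (1.57 ± 0.30, with 0.62 on another of its 3 probes), Smad7, an inhibitor of the pathway (1.09 ± 0.32), and Tgfb3. Tgfb3 was at least 1.44-fold higher, a bound because it was not well above background in ERt2. It passed the filter only through the RUNX1-ERt2 arrays, so its place in this count follows from the filter.

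Among 9 tested tissue-restricted partners of E proteins, 2 rose and 1 fell in ko: Tal1 rose by 0.63 ± 0.18 and Lyl1, its close relative, by 0.56 ± 0.12, while Tcf15 was at least 2.82-fold lower. Of the 9, 4 rose and 2 fell in RUNX1-ERt2 against ERt2, with a median of 0.26. Tcf23 was at least 5.99-fold and Tcf15 at least 1.98-fold higher, both not well above background in ERt2, and Ascl2 fell by 3.62 ± 0.36 (limma adjusted p = 0.00017). Tcf23 was not well above background on any native array either, so its signal was seen in RUNX1-ERt2 and in no other group. It passed the filter only through that group, so its place in the count that rose follows from the filter. Other helix-loop-helix genes, most of which pair with other partners, were 4 higher and 4 lower of 26 in ko, among them Hes5 (−1.80 ± 0.18), the aryl hydrocarbon receptor Ahr (−0.98 ± 0.13) and Mxd1 (0.96 ± 0.11). In RUNX1-ERt2 against ERt2 they were 3 higher and 3 lower, with Tfec at −1.66 ± 0.37 and the clock gene Arntl at −1.10 ± 0.17. Ahr was higher there (1.64 ± 0.19), so its level was lower with RUNX1 absent in both comparisons.

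Known E protein target genes of lymphoid progenitors had counts near those shares in ko: 4 of 25 rose and 3 fell, with a median of −0.07. Notch3 rose by 2.39 ± 0.40, and Pou2af1, a B-cell coactivator, and the chemokine receptor Ccr9 fell by 1.44 ± 0.37 and 1.34 ± 0.31. In RUNX1-ERt2 against ERt2, 5 rose and 5 fell, and the 3 genes with the largest fitted changes were surrogate light chain genes of early B cells. Vpreb1 rose by 5.86 ± 0.45 (limma adjusted p = 3.9e-05), Vpreb2 was at least 34.4-fold and Igll1 at least 24.5-fold higher, and for all 3 the RUNX1-ERt2 mean was also above the wt mean. Igll1 passed the filter only through the RUNX1-ERt2 arrays, so its place in the count that rose follows from the filter. Other early lymphoid genes of the list went the other way: Dntt, the terminal transferase of receptor rearrangement, fell by 2.98 ± 0.44 and Cd79b, a chain of the B-cell receptor, by 0.75 ± 0.17 (both named after their values were seen). The B-lineage marker genes Ebf1, Pax5 and Ms4a1 were not well above background on either RUNX1-ERt2 array, and the summed linear level of the 9 B-lineage markers, which include Vpreb1 and Igll1, was 14.3 to 29.1 there, 9.01 to 9.92 in ERt2, 5.96 to 6.47 in wt and 4.54 to 6.99 in ko. Cd79b made up 93.2% to 95.1% of the sum in ERt2, and without it the sum was 0.487 to 0.611 in ERt2 and 8.78 to 24.0 in RUNX1-ERt2. The part of B-lineage cells in these differences was not tested.

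Plasmacytoid dendritic cell genes, a programme that needs Tcf4, were 3 higher and 5 lower of 19 in ko, with Irf7 up by 1.80 ± 0.14 and Irf8 and Cox6a2 down by 1.57 ± 0.28 and 2.06 ± 0.42. In RUNX1-ERt2 against ERt2 the same list had 1 higher, Cd300c (3.43 ± 0.22), and 1 lower, Runx2 (−1.32 ± 0.19). Cofactors of E proteins and genes of Id protein turnover were 3 higher and 4 lower of 22 in ko, led by the adaptor gene Lmo1 (−2.93 ± 0.42), the related Lmo4 (−1.34 ± 0.13) and the transcription factor Gata3 (2.36 ± 0.21). With RUNX1-ERt2, 3 rose and 0 fell: Gata1 by 1.93 ± 0.47, and Ssbp3 and Ssbp2, which stabilise LDB1 complexes, by 0.73 ± 0.14 and 0.33 ± 0.09. Of the 4 tested Egr and Nab genes, known regulators of Id genes, none passed in ko, where the smallest p belonged to Nab2 (0.12 ± 0.14, and −0.32 on its other probe), and Nab2 fell in RUNX1-ERt2 against ERt2 by 0.70 ± 0.20.

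**Figure D4:**
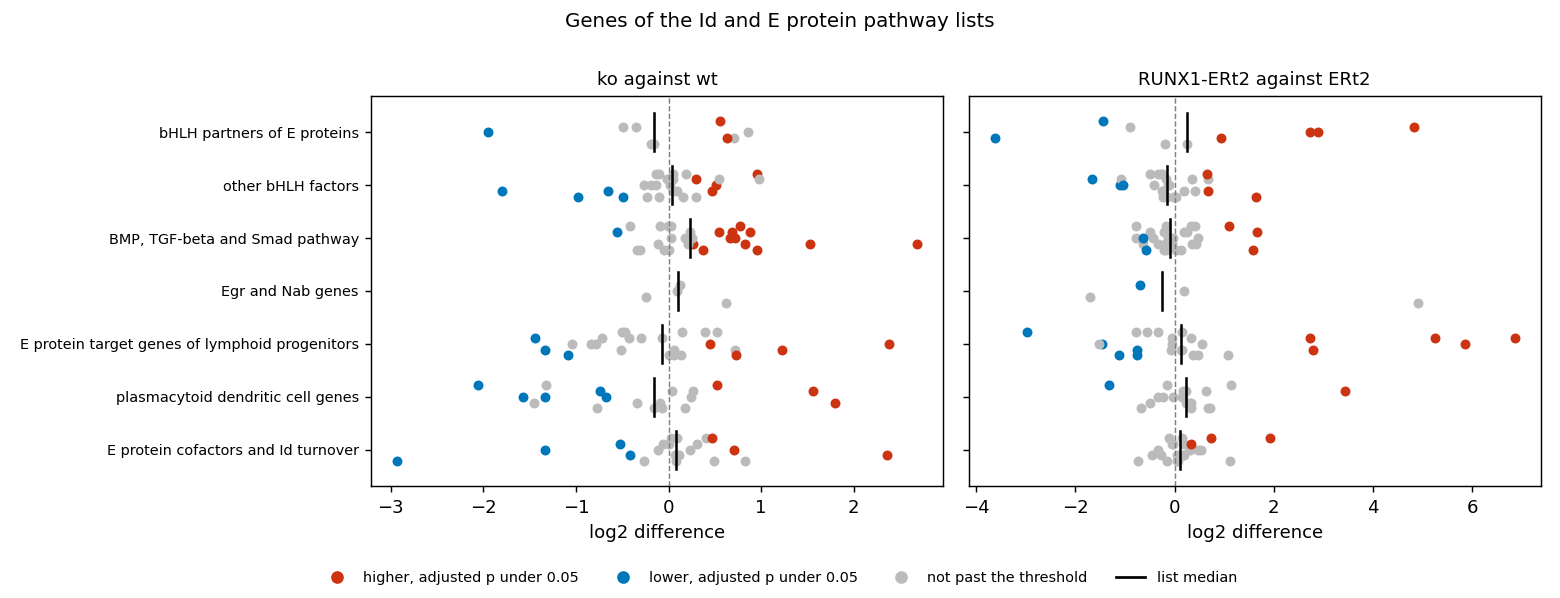
Log2 difference of each tested gene of the 7 lists in ko against wt (left) and RUNX1-ERt2 against ERt2 (right), coloured where the limma adjusted p was under 0.05, with the list median as a black line; the 2 panels have different scales, and fitted values of genes not above background in 1 group are not folds. The BMP, TGF-beta and Smad list has 12 red points and 1 blue point on the left, and Vpreb2, Vpreb1 and Igll1 are the far right points of the E protein target list on the right.

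Summed levels of cell type markers are given by group, and their relation to Id1 and Id2 was not computed. The summed linear level of 11 megakaryocyte genes was 11.4 to 17.4 in wt and 50.9 to 67.3 in ko, with 9 to 11 and 11 of them well above background, and 15.6 to 35.6 in ERt2 and 17.1 to 53.0 in RUNX1-ERt2. The 12 GMP genes themselves summed to 678 to 947 in wt and 462 to 595 in ko, with 6 lower calls and 1 higher, and to 998 to 1138 in ERt2 and 528 to 727 in RUNX1-ERt2, with 5 lower calls. Basophil and mast cell genes, 8 in all, summed to 39.3 to 45.7 in wt, 53.6 to 85.4 in ko, 96.5 to 104 in ERt2 and 52.1 to 69.3 in RUNX1-ERt2, with 6 to 8 of them well above background and Fcer1a on none of the ko arrays. Cpa3 alone made up 50.5% to 66.1% of that sum in ko and 22.0% to 28.5% in wt. Without Cpa3 it was 29.2 to 32.7 in wt, 24.3 to 29.7 in ko, 61.0 to 70.0 in ERt2 and 20.9 to 34.1 in RUNX1-ERt2. Of the 8 genes, 2 rose and 4 fell in ko against wt, where 11.5% and 13.8% of all genes did.

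The sum over 10 T and NK cell genes was 22.6 to 36.3 in wt, 10.5 to 15.7 in ko, 37.47 to 49.98 in ERt2 and 16.6 to 17.0 in RUNX1-ERt2, but it was mostly 1 gene, Nkg7, which made up 68.5% to 96.1% of it. Without Nkg7 the sum was 3.48 to 4.87 in wt, 3.31 to 4.31 in ko, 1.93 to 2.08 in ERt2 and 2.22 to 3.55 in RUNX1-ERt2, so wt and ko overlapped and the transplanted groups had the opposite order. Lck, a T-cell kinase, fell by 1.31 ± 0.25 in ko and rose by 1.44 ± 0.36 in RUNX1-ERt2 against ERt2, and Cd8a was not well above background on any array, Cd3g on none of ERt2 and Ncr1 on none of RUNX1-ERt2. Monocyte and macrophage genes, of which 9 of 9 were well above background on every array, summed to 42.5 to 75.7 in wt, 19.1 to 62.3 in ko, 95.1 to 115 in ERt2 and 20.1 to 26.5 in RUNX1-ERt2. F13a1 made up 54.75% to 55.95% of this sum in ERt2, 20.1% to 25.1% in wt and 3.99% to 8.84% in RUNX1-ERt2. Without F13a1 it was 34.0 to 58.8 in wt, 11.7 to 38.7 in ko, 43.1 to 50.7 in ERt2 and 19.3 to 24.2 in RUNX1-ERt2. The ERt2 arrays then lay within the wt range. The sum of 10 late neutrophil genes was 541 to 671 in ERt2 and at most 283 on any other array. For 9 erythroid genes it was 39.9 to 66.0 in wt and 32.9 to 99.1 in ko. In ERt2 it was 83.7 to 153, of which Hba-a1 made up 78.2% to 84.1%, and in RUNX1-ERt2 130 to 162. Without Hba-a1 the erythroid sum was 13.3 to 33.5 in ERt2 and 66.2 to 92.9 in RUNX1-ERt2. The sum of 10 dendritic cell genes was 90.4 to 118 in wt and 73.5 to 103 in ko. It was 87.0 to 94.9 in ERt2 and 89.0 to 90.7 in RUNX1-ERt2. Of the 9 tested, 0 rose and 5 fell in ko against wt, where 11.5% and 13.8% of all genes did. In RUNX1-ERt2 against ERt2, 1 rose and 1 fell. Between ERt2 and ko, 6 were higher and 1 lower in ERt2, where 30.2% and 26.7% of all genes were. The part of these cell types in the differences of Id1 and Id2 was not tested.

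Over the 12 arrays, the genes whose levels followed a member most closely were, by Pearson correlation of log2 levels, 4930432K21Rik (0.91), Cd302, Hmga2, Tff1 and Deptor for Id1, and Amz1 (0.93), Lpl, Kcnj10, Shtn1 and Aif1 for Id2. For Id3 they were Maff (0.91), Arhgap20, Siah2, Snrnp48 and Gm10584. For the E proteins they were Rpl7 (0.94), Mrps26, Chek1, Riok1 and Zfp408 for Tcf3, Ptgis (0.89), 4930555G01Rik, Prss28 and Crem for Tcf4, and Atm (0.95), Kpna4, Nfatc3, Tgm3 and Tmem215 for Tcf12. The arrays share slides and groups, so these values describe the 12 arrays and carry no test. No member was among the nearest genes of another, and the correlation between Id1 and Id2 was −0.31.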

How the data were processed

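Cy3-labelled RNA of sorted GMP was hybridised to Agilent arrays with 1 channel, per the labels' protocols. The deposited intensities are Agilent Feature Extraction's processed signal, corrected for background and spatial trend, per the file headers, which name another version than the 9.1 of the submitters' processing notes. Probe coordinates are those of the files (mm9); exon or UTR positions were not assigned. The authors' deposited series matrix holds a signal divided by each array's median (column medians 0.91 to 0.94); each of its 8 wt and ko columns fitted the scanner values of a different replicate in that group, and it served as an alternative only.

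Control and outlier spots (129 to 207 per array) were left out, no probe was saturated, spots of a probe were averaged, and each array's 75th percentile was subtracted from its log2 intensities. Of 39429 probes, 27234 were named through a RefSeq accession (GRCm38.p6), 3576 by current symbol and 565 by an older synonym. The brightest tested probe by mean stood for a gene. Differences were tested with limma 3.58.1 in R 4.3.3, two-sided, in a single model with 4 group means and 1 slide effect, with 7 residual and 2.11 prior degrees of freedom and Benjamini-Hochberg adjustment over 17905 genes at 0.05. The slide effect was estimated from wt and ko arrays. For a gene not above background in 1 group, the fold is a bound against the lowest signal well above background on those arrays. The fit was tested on simulated data. Correlations of deviations from group means were 0.37, 0.35, 0.18 and 0.67 for same-numbered wt and ko arrays (the numbers come from the labels). These values do not establish pairs. The correlation was higher for wt replicate 2 with ko replicate 1 (0.45) and for wt replicate 3 with ko replicate 4 (0.21). Replicates 1 and 2 shared slide 1, and replicates 3 and 4 shared slide 2. The number of arrays limits the precision.

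From each pathway list, the 3 called genes of greatest change in each of the first 2 comparisons (where none was called, that of smallest p) were named, and the 5 genes most correlated with each member, except that some genes these rules chose are not reported here; a few others were named after their values were seen. Members, lists and tests were chosen with earlier results of these data known. Alternatives were normexp (offset 50), quantile normalization, array median, series matrix, no filter, a filter on all arrays, no slide term, slide as a random block, replicate blocks, only the groups compared, the mean of all probes, array weights, each slide alone and each array left out.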

Additional observations from a re-analysis of the deposited data

Results flagged for a closer look

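The difference between the effects of RUNX1 absent against present on Id2 in transplanted and native GMP was 1.51 on the log2 scale, and it stands out because an interaction term tested it and passed (limma adjusted p = 0.0074). The native effect came from wt and ko arrays on shared slides, while the transplanted one lies between slide 3 and slide 4.

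One array stood apart on the second Tcf4 probe: ko replicate 3 had a level of −4.85, while the other ko arrays were between −3.65 and −3.56. Its gap to the nearest was 0.931 of the range of the group. The first Tcf4 probe of that array was at 1.13, also the lowest of ko. Gaps above the limit used are seen by chance in about 1 in 20 groups, and 20 groups of 4 arrays were examined.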

How the results depend on the processing

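All values here are log2 differences or counts of members past the threshold by limma, and where a setting changed one the cause was not tested. Over all settings, 549 member results kept their direction and side of the threshold, 30 became weaker, 6 passed anew and 22 changed sign, none of them a called result. In ko against wt, 1 member passed when slide was left out of the model and 0 on slide 2 alone (1 at an unadjusted p under 0.05). Id3 in ko against wt was −0.42 with normexp, −0.17 with array weights and −0.44 on slide 1 alone, and −0.38 to 0.28 when single arrays were left out. Tcf12 in ko against wt was −0.0248 with the mean of probes, −0.0519 with array weights and −0.11 on slide 1 alone, and −0.0557 to 0.11 when single arrays were left out, and Tcf4 was 0.0731 on slide 1 alone. In RUNX1-ERt2 against ERt2, 1 member passed with the mean of probes and 0 to 1 when single arrays were left out, and Id3 was −0.011 with normexp. In ERt2 against ko, 1 member passed with the array median, 1 using the series matrix, 1 with slide left out and 0 with slide as a random block (1 unadjusted), and 1 to 4 when single arrays were left out. There Id1 was 0.0722 with the array median and 0.0588 using the series matrix (−0.43 to 0.13 when single arrays were left out), and Tcf3 was 0.16, 0.14 and, with the mean of probes, 0.25 (−0.13 to 0.0531). In RUNX1-ERt2 against wt, 0 members passed with the array median (2 unadjusted), the series matrix (1), slide left out (0) or slide as a random block (0), 2 with the mean of probes and 0 to 2 when single arrays were left out, and Tcf4 ranged from −0.24 to 0.34 in the latter. For the difference between transplanted and native effects, 0 members passed with slide left out or as a random block (1 unadjusted in each), and Id3 was 0.43 with normexp.

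The replicate block left 2 members past the threshold in ko against wt, with 1781 genes higher and 1919 lower against 2065 and 2472, and ended 1 member call, Id3 in ERt2 against ko (adjusted p = 0.086). Crossed replicate numbers of the transplanted arrays, chosen after seeing the data (correlation −0.19 for equal numbers), gave 4084 genes and 0 members in RUNX1-ERt2 against ERt2. Counts of all genes went from 381 (slide 2 alone) to 6398 (array weights) around 4537 in ko against wt, from 1391 (normexp) to 4084 around 3418 in RUNX1-ERt2 against ERt2, from 6415 (normexp) to 15476 (no filter) around 10188 in ERt2 against ko, from 4776 (normexp) to 9268 around 8250 in RUNX1-ERt2 against wt, and from 1250 (normexp) to 4283 around 3254 for the difference of effects. The array median moved the median of all genes by 0.19 in ERt2 against ko and 0.13 in RUNX1-ERt2 against wt. The share of calls that were higher went from 45.5% to 57.3% in ko against wt and from 53.1% to 64.2% in ERt2 against ko with that setting. Signal over background limits Id3 and Id4.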
